A study of Mus musculus with 12 samples.

Results

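The 36 sarcomere and Z-disc genes described here encode the thick, thin and titin filaments of striated muscle, the M-band and Z-disc that anchor them, and 3 enzymes or chaperones of the same machinery. They were taken by gene symbol from the 40800 genes of the count table, 1 entry per gene identifier, and all 36 were among the 14774 genes with enough counts to be tested. The study profiled heart ventricles of mouse embryos at embryonic day 12.5 by bulk RNA sequencing. It compared 6 libraries of a Wnt gain-of-function genotype (WntGOF) with 6 control libraries. Sample titles carry the word wntgof in brackets in both groups, so the groups were taken from the genotype label. The labels name no allele, Cre driver, strain or sex for either group, nor what the controls carry. They do not say whether ventricles were pooled or whether each library came from a separate embryo, so the p-values below measure the spread between libraries, which may be technical. Libraries held 12127026 to 17184662 counts in the WntGOF group and 10130088 to 17526325 in the control group.

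Sarcomeres shorten when myosin heavy chains of the thick filament pull on actin of the thin filament, under calcium control by the troponins and tropomyosin. Many of these proteins come as a cardiac form and as forms named for slow, fast, skeletal or developmental muscle, and the embryonic heart holds mixtures that shift as it matures. In the mouse ventricle Myh7 and the slow skeletal troponin I Tnni1 lead before birth, and Myh6 and the cardiac troponin I Tnni3 after it.

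Among the myosin heavy chain genes, 3 hold a related microRNA in an intron, shown here since their host genes form the myosin ratios below. The microRNAs themselves were not measured. The mature sequences are from RefSeq (GRCm38.p6), 5′ to 3′, with the seed (bases 2 to 8) in capitals. MiR-208a lies in Myh6 at chr14:54949072-54949093 (minus strand), miR-208b in Myh7 at chr14:54975710-54975731 (minus strand) and miR-499 in Myh7b at chr2:155622893-155622913 (plus strand).
miR-208a-3p (Myh6): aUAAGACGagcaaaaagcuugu
miR-208b-3p (Myh7): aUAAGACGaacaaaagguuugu
miR-499-5p (Myh7b): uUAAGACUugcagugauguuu
The forms in Myh6 and Myh7 share their seed, and the seed of the form in Myh7b differs from it in its last base.

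The library labelled WntGOF 5 stood apart from its group at Wnt targets. Axin2, a negative regulator that Wnt signalling itself induces, had a level of 3.77 CPM (counts scaled to library size) in that library and 14.9 to 26.0 CPM in the other 5 WntGOF libraries, against 1.39 to 4.13 CPM in the controls. Notum, an extracellular Wnt inhibitor, had 1.18 CPM in it and 12.9 to 22.4 CPM in the other 5, against 0.115 to 0.874 CPM in the controls. Of 8 textbook Wnt targets (Axin2, Lef1, Nkd1, Notum, Rnf43, Sp5, Tcf7 and Znrf3), listed after their values were seen, the library labelled WntGOF 5 lay within the control range at 5 and below the other 5 WntGOF libraries at 7. It was kept in its labelled group, and values without it are given beside the results that rest on it. Clustering of the libraries by their deviations from the group means, cut into 3, gave sets that cut across the groups, each with 2 WntGOF and 2 control libraries. Set 1 held WntGOF 1 and 2 with controls 2 and 3, set 2 held WntGOF 3 and 4 with controls 4 and 5, and set 3 held WntGOF 5 and 6 with controls 1 and 6. The labels do not say what the sets are. WntGOF 1 and 2, WntGOF 3 and 4, and controls 2 and 3 were the closest pairs, with a mean chi-square per gene of 3.07 to 3.32 against 12.8 or more in every other pair of a group, where counting noise alone gives about 1. Set 3 was not tight by that measure: WntGOF 5 and 6 were at 59.4, whereas WntGOF 6 was at 25.7 to 33.5 against WntGOF 1 to 4.

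Markers of heart muscle were abundant in all libraries. The summed level of 9 cardiac muscle markers was 9345 to 11630 CPM in WntGOF libraries and 9400 to 13758 CPM in controls, and all 9 fold changes were below 0, none of them called by edgeR over all libraries. With the library sets as a block, Mb, Ckm, Pln and Actn2 were called lower, 4 of 9, against 0.677% of all genes. Of the 9, Tnnt2 and Actn2 are also among the 36 genes, and the part of the marker level in the values below was not tested. The skeletal muscle transcription factors Myod1, Myf5, Myf6, Pax3 and Pax7 had between 3 and 36 counts in all 12 libraries together and Myog had 88. Other genes of the 15 on the skeletal list had counts, Casq1 at 137 to 294 CPM, Ckm at 27.2 to 258, Cav3 at 56.4 to 91.0, Mylpf at 7.41 to 13.1 and Tnnt3 at 2.07 to 7.23 CPM over the 12 libraries, and the summed list was at 290.5 to 568 CPM in WntGOF libraries and 301 to 493 CPM in controls. Leukocyte markers were above 0 in fold change for 6 of 6 (median log2 0.41, summed 34.6 to 67.6 CPM in WntGOF libraries and 31.5 to 47.6 CPM in controls). By edgeR 4 of 6 had an unadjusted p under 0.05, against 6.3% of all genes, and 0 were called, against 0.501%. Mesenchyme markers were below 0 for 6 of 6 (median log2 -0.20, summed 1531 to 2101 CPM in WntGOF libraries and 1642 to 2413 CPM in controls). None of the 6 was called by edgeR over all libraries. With the library sets as a block, Col1a2 was called lower (log2 fold change -0.33, adjusted p = 0.0143), 1 of 6, against 0.677% of all genes. Of 7 smooth muscle markers, 6 were below 0 (median log2 -0.10) and 0 were called by edgeR over all libraries. DESeq2 called 1 of them, Actg2, lower (adjusted p = 0.0338), against 0.169% of all genes. Erythroid markers summed to 12136 to 89396 CPM in WntGOF libraries and 9674 to 74789.9 CPM in controls. Of 7 endothelium markers 5 were above 0 (median log2 0.09, summed 754 to 827 CPM in WntGOF libraries and 691 to 782 CPM in controls). With the sets as a block Npr3 was called higher (edgeR, adjusted p = 0.0257), 1 of 7, against 1.32% of all genes. Epicardium markers were below 0 for 5 of 6 (median log2 -0.04). Of 4 liver markers 2 were tested. By edgeR over all libraries 0 of these 3 lists were called. The part of the cell types above in the results was not tested. In bulk RNA, fewer cardiomyocytes and less RNA of a gene per cardiomyocyte cannot be told apart.

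None of the 36 genes passed the test between the groups. With edgeR's quasi-likelihood test, called at an adjusted p under 0.05 over all 14774 genes, 0 of 36 were called, where 0.501% of all genes were (74 genes, 64 higher and 10 lower in WntGOF). DESeq2 called 0 of 36, against 1.08% of all genes, and limma-voom 0 of 36, against 0.0406%. At an unadjusted p under 0.05 edgeR held 3 of 36 (Csrp3, Tnnt1 and Myh6), against 6.3% of all genes. DESeq2 held 5, against 6.52%, and limma-voom 3, against 6.45%. The CPM ranges of the groups overlapped for all 36, and failed to overlap for 0.46% of all genes. The fold changes were small: 31 of 36 lay within 0.3 on the log2 scale, and the 2 beyond 0.5 were Myom2 and Myh8, both near the bottom of the levels. Of the 36, 26 were below 0, against 49.6% of all genes, and their median log2 fold change was -0.07, against a median of 0.00131 over all genes. Without the library labelled WntGOF 5, edgeR called 1 of 36, Csrp3, against 1.19% of all genes, and 25 of 36 were below 0 with a median of -0.06. Leaving out any other library gave 0 of 36.

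**Figure D1:**
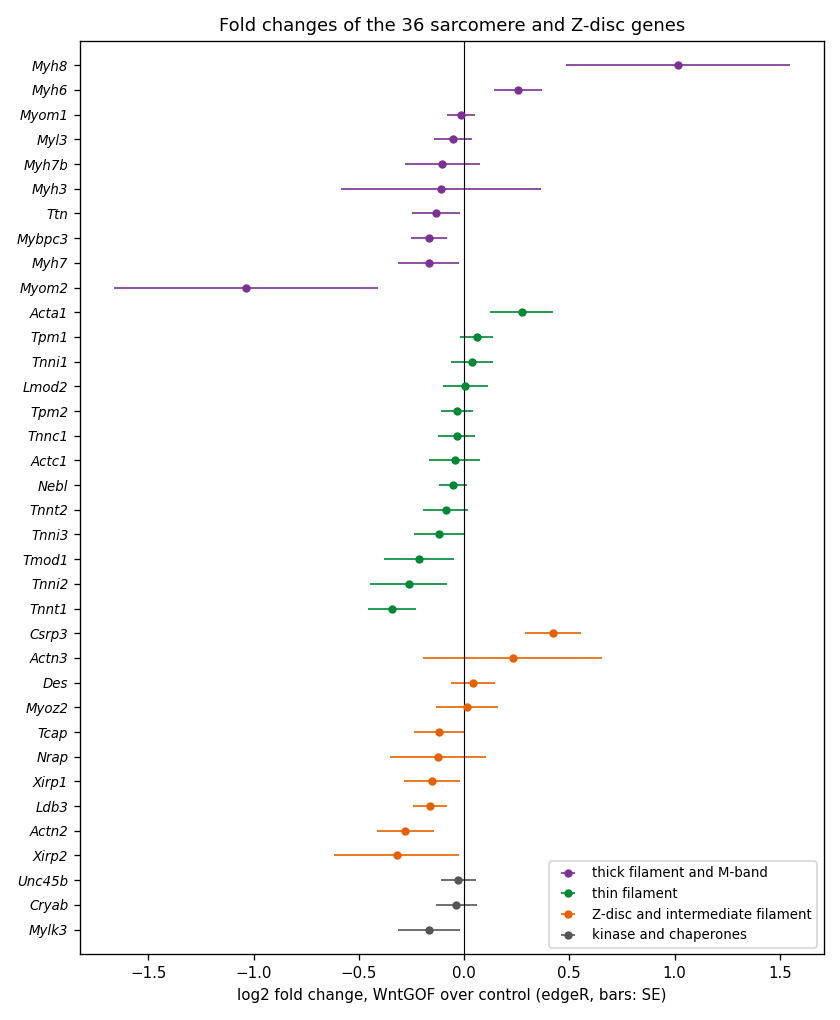
Log2 fold change of each of the 36 genes, WntGOF over control, on the horizontal axis, with bars of 1 SE from edgeR (n = 6 libraries per group). Genes are grouped by role and sorted by value, 26 of 36 points lie left of 0, and Myh8 and Myom2 lie farthest out with the widest bars.

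Myh7, the slow or beta myosin heavy chain, was the heavy chain with the highest level. It spanned 2106 to 2863 CPM with a median of 2577 in WntGOF libraries, and 2179 to 4061 CPM with a median of 2589 in controls. The ranges overlapped, and the 2 highest libraries were controls 2 and 3. Its log2 fold change was -0.17 ± 0.144 (SE, adjusted p = 0.999). Myh6, the alpha heavy chain of the adult mouse ventricle, spanned 549.9 to 861 CPM with a median of 716 in WntGOF libraries, and 507 to 739 CPM with a median of 606 in controls. Of the WntGOF libraries 3 lay above every control, and the lowest was the library labelled WntGOF 5. The log2 fold change was 0.26 ± 0.114 (SE, unadjusted p = 0.0389, adjusted p = 0.722) over all libraries and 0.33 (adjusted p = 0.271) without that library. Stretches of 50 bases shared with Myh7 made up 20.2% of those in Myh6 and 15.6% the other way, so reads can be split between these neighbouring genes, and 13.3% of Myh7's exon bases also lie in genes on the opposite strand, with the strand setting not given in the sources used here.

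The other heavy chains were far lower. Myh7b, a slow-tonic myosin, spanned 21.6 to 36.3 CPM in WntGOF libraries and 22.6 to 42.9 CPM in controls, with a log2 fold change of -0.10. Myh3, the embryonic skeletal heavy chain, spanned 0.296 to 3.99 CPM in WntGOF libraries and 0.796 to 3.45 CPM in controls, overlapping over almost the whole range. Myh8, the perinatal skeletal heavy chain, spanned 0.592 to 3.22 CPM with a median of 1.02 in WntGOF libraries, and 0.0885 to 1.49 CPM with a median of 0.530 in controls. WntGOF 1 and 2 were the highest of all and controls 2 and 3, of the same set, the highest controls. The log2 fold change of Myh8 was 1.02 ± 0.533 (SE, adjusted p = 0.894).

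The other thick filament and M-band genes stayed within the spread. Myom1, the main myomesin that crosslinks thick filaments at the M-band, spanned 444 to 473 CPM in WntGOF libraries and 420 to 524 CPM in controls, with a log2 fold change of -0.02. Myom2, the M-protein, spanned 0.888 to 4.81 CPM with a median of 1.84 in WntGOF libraries, and 1.67 to 11.2 CPM with a median of 2.33 in controls. Controls 2 and 3, both in set 1, stood at 11.2 CPM each, and the WntGOF libraries of the same set were the highest of their group. The log2 fold change of Myom2 was -1.04 ± 0.627 (SE, adjusted p = 0.982). Ttn, the titin spring that spans from Z-disc to M-band, had a log2 fold change of -0.13, Mybpc3, the cardiac myosin binding protein, -0.17, and Myl3, the ventricular essential light chain, -0.05. Of the 10 thick filament and M-band genes, 8 were below 0, with a median log2 fold change of -0.11.

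Actc1, the cardiac alpha actin, had the highest level per length of all 36 genes, at 6010 CPM per kilobase of exon in WntGOF libraries and 6202 in controls. In CPM it spanned 8546 to 12016 with a median of 8622 in WntGOF libraries, and 8488 to 11477 with a median of 10191 in controls. Both groups had their set 1 libraries at the top, and the log2 fold change was -0.05 ± 0.119 (SE, adjusted p = 0.999). Acta1, the skeletal alpha actin, spanned 295 to 382 CPM with a median of 333 in WntGOF libraries, and 199.6 to 400.4 CPM with a median of 269 in controls. The highest value of all was control 1, so no WntGOF library lay above every control, and the log2 fold change was 0.27 ± 0.151 (SE, adjusted p = 0.93).

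Tnnt1, the slow skeletal troponin T that ties troponin to tropomyosin, was the thin filament gene with the lowest p. It spanned 208 to 306 CPM with a median of 237 in WntGOF libraries, and 246 to 368 CPM with a median of 336 in controls. Of the WntGOF libraries 4 lay below every control, and the other 2 were those of set 1, where the controls were highest too. The log2 fold change was -0.34 ± 0.115 (SE, unadjusted p = 0.00863, adjusted p = 0.391). Tnnt2, the cardiac troponin T, spanned 3240.0 to 4003 CPM with a median of 3657 in WntGOF libraries, and 3140.1 to 4940.0 CPM with a median of 3687 in controls. These ranges overlapped, and the log2 fold change was -0.09.

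The inhibitory troponins showed no called change. Tnni1, the slow skeletal form, spanned 3509 to 4557 CPM in WntGOF libraries and 3102 to 4452 CPM in controls, with a log2 fold change of 0.04. Tnni3, the cardiac form, spanned 839 to 1242 CPM in WntGOF libraries and 903 to 1335 CPM in controls, with a log2 fold change of -0.12. Tnni2, the fast skeletal form, spanned 9.32 to 18.1 CPM in WntGOF libraries and 12.2 to 20.9 CPM in controls, at -0.26 on the log2 scale. Set 1 held the lowest Tnni2 values in both groups, the opposite of most of the 36 genes. Tnnc1, the calcium-binding troponin of heart and slow muscle, was next to Actc1 in level per length. It had 1867 CPM per kilobase of exon in WntGOF libraries and 1913 in controls. That rank depends on the exon lengths used. In CPM its means, 1943 in WntGOF libraries and 1992 in controls, were below those of Tnnt2, Tpm1, Tnni1 and Myl3.

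Among the tropomyosins, Tpm1 spanned 4898 to 5833 CPM in WntGOF libraries and 4603 to 5813 CPM in controls, with a log2 fold change of 0.06. Tpm2 spanned 97.0 to 122 CPM in WntGOF libraries and 94.3 to 117 CPM in controls, with a log2 fold change of -0.03. The remaining thin filament genes were Tmod1, the pointed-end cap of actin (-0.21), Nebl, the cardiac nebulin relative nebulette (-0.05), and Lmod2, a cardiac actin nucleator (0.01), all log2 fold changes with an adjusted p of 0.999. Tstd2, on the opposite strand, covers 32.6% of the exon bases of Tmod1. Of the 13 thin filament genes, 9 were below 0.

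Csrp3, the muscle LIM protein of the Z-disc, had the lowest p of the 36 genes. It had 1047, 1099, 988, 1011, 538 and 872 CPM in WntGOF libraries 1 to 6, and 637, 707, 693, 633, 704 and 774 CPM in controls 1 to 6. Of the WntGOF libraries 5 lay above every control, and the library labelled WntGOF 5 lay below every control. The means were 926 ± 204 CPM in WntGOF libraries and 691 ± 52.1 CPM in controls (SD, n = 6 each), and the log2 fold change was 0.42 ± 0.134 (SE, unadjusted p = 0.00666, adjusted p = 0.339). Within the sets, the log2 ratio of the means was 0.62 in set 1, 0.58 in set 2 and -0.000624 in set 3. Csrp3 was not called by edgeR with the sets as a block (0.40, adjusted p = 0.232) or with the closest pairs summed (0.34, 0.999965). Without the library labelled WntGOF 5 the log2 fold change was 0.54 ± 0.0798 (SE, adjusted p = 0.0015 by edgeR), and Csrp3 was called. That fit counts the closest pairs as separate libraries, so its p can be too small. Csrp3 was then 1 of 36 genes without overlap between the groups, against 1.96% of all genes in that fit. The library left out was the only WntGOF library not above every control, so the lack of overlap follows from leaving it out.

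Actn2, the alpha-actinin that crosslinks actin at the Z-disc, spanned 1005 to 1675 CPM with a median of 1409.8 in WntGOF libraries, and 1408 to 2048 CPM with a median of 1515 in controls. Of the WntGOF libraries 3 lay below every control. The log2 fold change was -0.28 ± 0.135 (SE, adjusted p = 0.82). Actn3, its fast skeletal relative, spanned 0.528 to 1.59 CPM in WntGOF libraries and 0.230 to 1.31 CPM in controls. The ranges overlapped in part: 2 WntGOF libraries lay above every control, and controls 3 and 4 lay below every WntGOF library. Xirp1 and Xirp2, actin-binding repeat proteins of the cell ends where myofibrils attach, had log2 fold changes of -0.15 and -0.32. Xirp1 spanned 69.8 to 103 CPM in WntGOF libraries and 76.9 to 130.4 CPM in controls. Xirp2 spanned 2.07 to 5.34 CPM in WntGOF libraries and 2.32 to 6.45 CPM in controls, with the 2 highest controls again in set 1.

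The other Z-disc and intermediate filament genes had adjusted p-values of 0.839 or more. Ldb3, the PDZ and LIM protein also called ZASP or Cypher, had a log2 fold change of -0.16, Tcap, the titin cap, -0.12, Nrap, a scaffold of forming myofibrils, -0.12, Myoz2, a calcineurin-binding calsarcin, 0.01, and Des, the muscle intermediate filament desmin, 0.04. Of the 10 Z-disc and intermediate filament genes, 6 were below 0. Mylk3, the cardiac myosin light chain kinase, had -0.17, Cryab, the small heat shock protein that protects desmin and titin, -0.04, and Unc45b, the chaperone that folds the myosin head, -0.03. All 3 were below 0 and none passed the test.

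**Figure D2:**
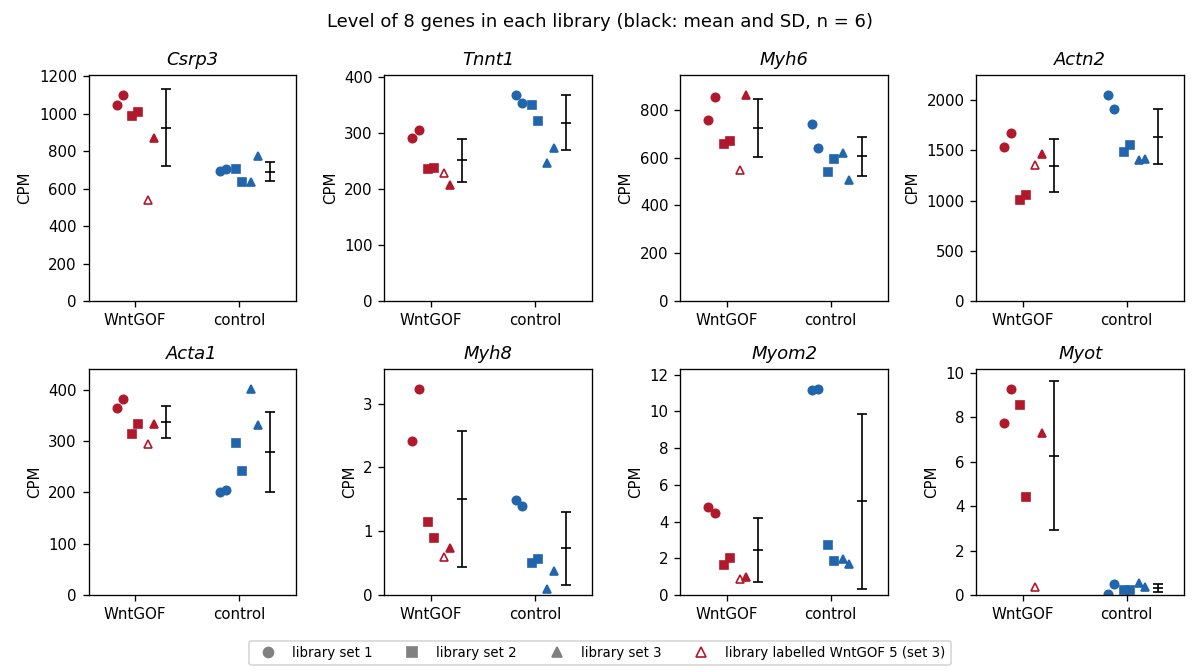
Level in CPM of 7 of the 36 genes and of Myot, a Z-disc gene outside the set, in each of the 6 WntGOF (red) and 6 control (blue) libraries, with the mean and SD in black. The library labelled WntGOF 5, the open triangle, lies among or below the controls for Csrp3, Myh6 and Myot, and set 1 (circles) is high in both groups for Myh8 and Myom2.

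Isoform choice was read from 12 ratios of counts within a library, in which depth cancels, and gene length cancels in the difference between the groups, with an exact two-sided permutation test over all assignments of the libraries to 2 groups of 6 and adjustment over the 12 ratios. None of the 12 was called. The ratio of Tnnt1 to Tnnt2 came nearest, with a log2 difference of -0.27, WntGOF minus control (exact permutation p = 0.00433, adjusted p = 0.0519). By counts alone the mean log2 ratio was -3.88 in WntGOF libraries and -3.61 in controls. Per length, Tnnt1 made up 17.9% to 21.2% of the pair in WntGOF libraries and 20.7% to 25.2% in controls. The means were 19.3% ± 1.26 and 22.4% ± 1.63 (SD, n = 6 each). These shares depend on the lengths used, all annotated exon bases, 7.75 kilobases for Tnnt2 and 2.20 for Tnnt1, which can exceed the transcripts made. Of the WntGOF libraries 5 lay below every control. Within the sets the log2 difference was -0.03 in set 1, -0.46 in set 2 and -0.32 in set 3. Without the library labelled WntGOF 5, which had the lowest share of all, the difference was smaller, at -0.24. It was then called (exact permutation test, adjusted p = 0.039). The adjustment runs over all 12 ratios, so this call also depends on the p-values of the other ratios, and Myh6/Myh7 was called in the same setting.

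The ratio of Myh6 to Myh7 differed by 0.39 on the log2 scale (exact permutation p = 0.039, adjusted p = 0.199). Per length, Myh6 made up 28.0%, 27.6%, 24.7%, 24.9%, 20.5% and 34.4% of the pair in WntGOF libraries 1 to 6, and 23.4%, 18.6%, 18.9%, 22.8%, 24.2% and 22.5% in controls 1 to 6. Of the WntGOF libraries 5 lay above every control, and the library labelled WntGOF 5 lay within the control range. Without it the log2 difference was 0.48 and was called (exact permutation test, adjusted p = 0.026). The closest pairs counted as separate libraries here and in the call of Tnnt1/Tnnt2 above, so these p-values can be too small. The difference was 0.74 in set 1, 0.11 in set 2 and 0.31 in set 3, so it was positive in each but rested most on set 1, where controls 2 and 3 had the highest Myh7. The part of atrial muscle in the Myh6 level and in this ratio was not tested.

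**Figure D3:**
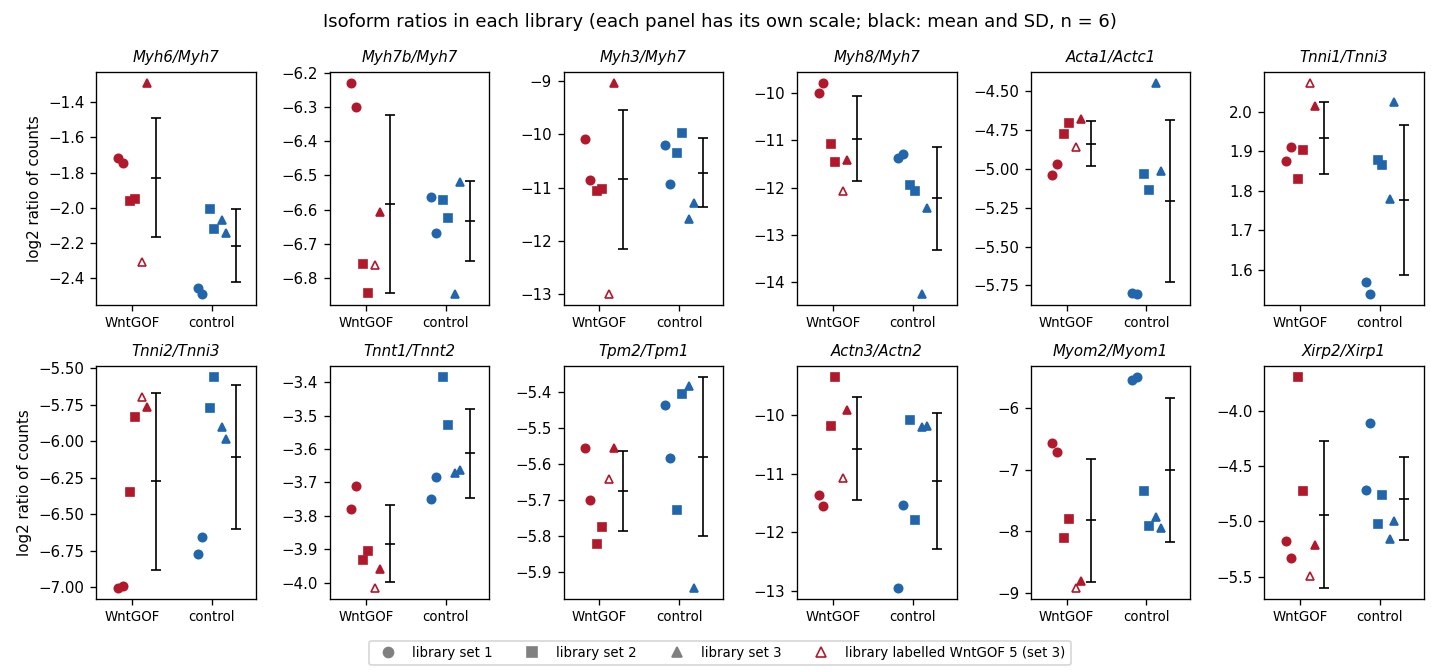
Log2 ratio of counts for the 12 isoform pairs in each library, WntGOF red and control blue, with mean and SD in black (n = 6). The WntGOF libraries sit lower for Tnnt1/Tnnt2, where 5 of 6 lie below every control, and higher for Myh6/Myh7, where 5 of 6 lie above every control and the open triangle does not.

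The ratio of Myh8 to Myh7 differed by 1.27 (exact permutation p = 0.0498, adjusted p = 0.199) and was positive in all 3 sets, but Myh8 made up only 0.0159% to 0.0823% of the pair per length in WntGOF libraries and 0.00249% to 0.0283% in controls. The 4 myosin ratios share Myh7 as their denominator and are not independent. The ratio of Acta1 to Actc1 differed by 0.37 (exact permutation p = 0.147, adjusted p = 0.353), with Acta1 at 3.10% to 3.95% of the pair in WntGOF libraries and 1.85% to 4.60% in controls. The ratio of Tnni1 to Tnni3 differed by 0.16 (exact permutation p = 0.102, adjusted p = 0.305), with Tnni1 at 68.6% ± 1.35 of the pair per length in WntGOF libraries and 66.2% ± 2.94 in controls (SD, n = 6 each). Per length, the fetal form Tnni1 exceeded Tnni3 in every library of both groups, and Myh7 exceeded Myh6 likewise. The remaining ratios had adjusted p-values from 0.437 to 0.851 by the same exact test, with log2 differences of -0.82 for Myom2/Myom1, 0.55 for Actn3/Actn2, -0.10 for Tpm2/Tpm1, -0.16 for Tnni2/Tnni3, -0.15 for Xirp2/Xirp1, 0.05 for Myh7b/Myh7 and -0.12 for Myh3/Myh7.

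Most of these genes stood highest in the libraries of set 1. That set was highest in both groups for 24 of 36 genes, against 24.3% of all genes tested, given as a description since the sets came from the same libraries, and Myom2 stood 2.16 and Myh8 1.99 higher there than in sets 2 and 3 on the log2 scale. Set 1 was lowest in both groups for 3 genes, Tnni2, Actn3 and Des. With the sets as a block, edgeR called 4 of 36, against 2% of all genes: Myom2 (log2 fold change -0.91, adjusted p = 0.0121), Tnnt1 (-0.34, 0.00291) and Actn2 (-0.29, 0.0464) lower, against 0.677% of all genes, and Myh8 (1.03, 0.0451) higher, against 1.32%. For the same reason these p-values can be too small. With the closest pairs summed 0 of 36 were called, against 0.00662% of all genes.

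**Figure D4:**
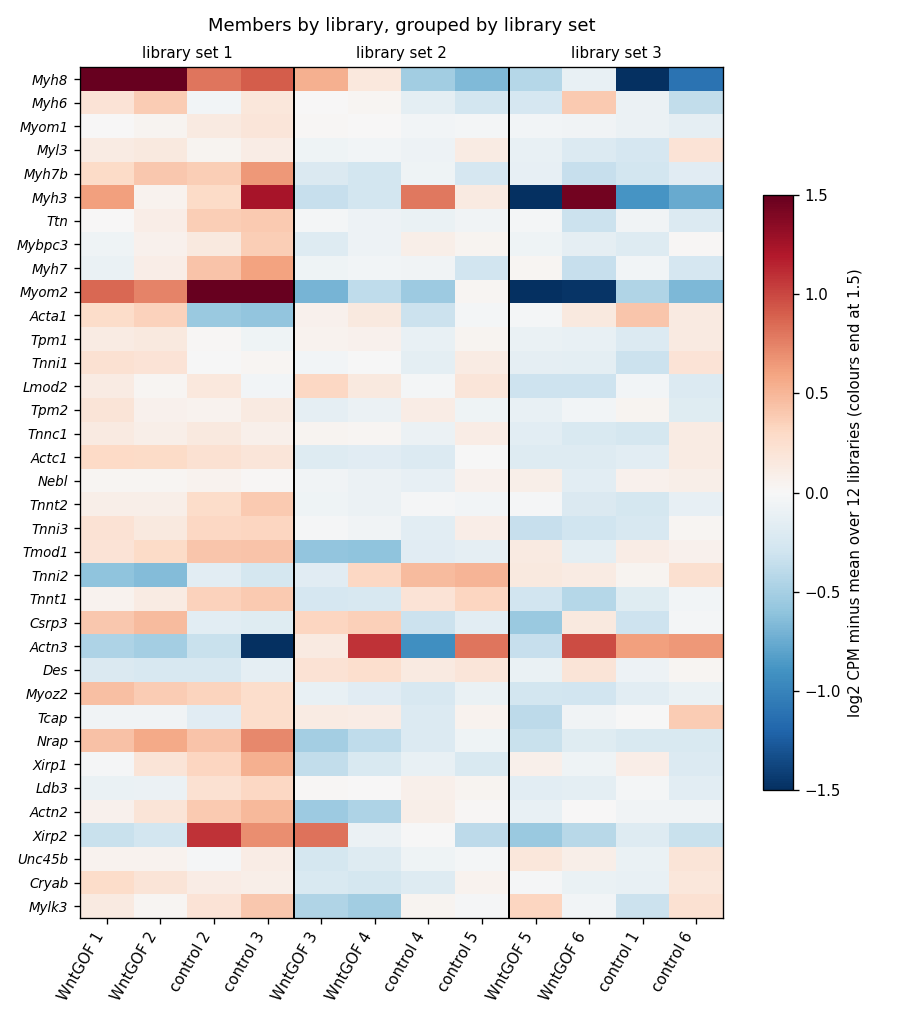
Log2 CPM of each gene minus its mean over the 12 libraries (red above, blue below the mean, colours end at 1.5), with libraries in columns grouped by set, the WntGOF libraries left of the controls in each. The columns of set 1 are mostly red in both groups, as 24 of 36 genes were highest there in both.

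Together the 36 genes took 4.49% to 5.56% of all counts in WntGOF libraries, with a mean of 4.94% ± 0.439, and 4.55% to 5.84% in controls, with a mean of 5.10% ± 0.534 (SD, n = 6 each). The difference of -0.16 percentage points was smaller than either SD. By set it was -0.25, 0.05 and -0.28, and the set 1 means of 5.48% in WntGOF libraries and 5.73% in controls were the highest of both groups.

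**Figure D5:**
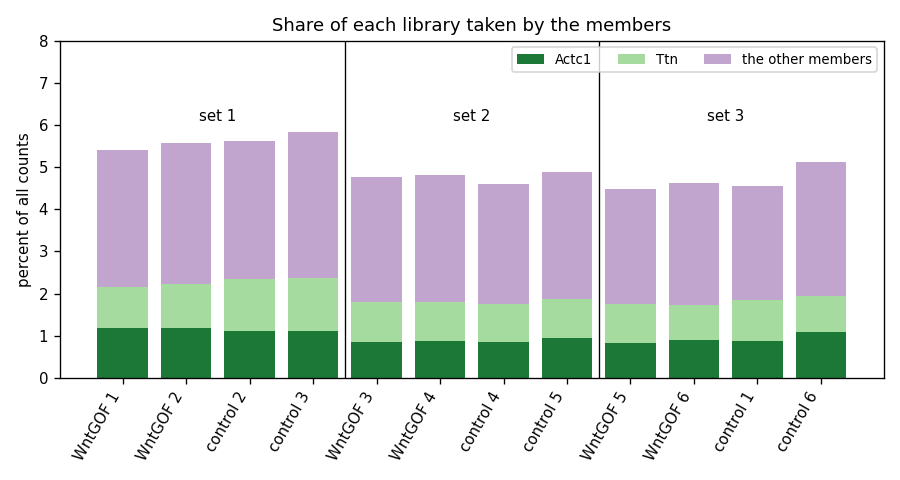
Percent of all counts of a library taken by Actc1, Ttn and the other 34 genes, stacked, by library and set, the WntGOF libraries left of the controls. The bars of set 1 are the tallest, with means of 5.48% for WntGOF and 5.73% for control libraries.

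Promoter sequence is shown for the 3 genes with the lowest p, Csrp3, Tnnt1 and Myh6, as the 250 bases before the start of the gene in RefSeq (GRCm38.p6), on the gene's own strand. They lie at chr7:48848052-48848301 (minus strand, Csrp3), chr7:4515976-4516225 (minus strand, Tnnt1) and chr14:54966608-54966857 (minus strand, Myh6). Capitals mark matches on either strand to M-CAT (CATTCC), bound by TEAD factors, and to the TCF/LEF core of Wnt signalling (CAAAG after 2 bases that are each A or T), and the CArG box of SRF and the MEF2 site were searched too.
Csrp3: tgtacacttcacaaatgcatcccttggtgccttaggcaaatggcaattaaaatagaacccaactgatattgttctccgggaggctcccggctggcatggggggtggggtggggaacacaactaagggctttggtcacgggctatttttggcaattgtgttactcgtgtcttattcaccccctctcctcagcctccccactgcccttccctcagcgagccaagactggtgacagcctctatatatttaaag
Tnnt1: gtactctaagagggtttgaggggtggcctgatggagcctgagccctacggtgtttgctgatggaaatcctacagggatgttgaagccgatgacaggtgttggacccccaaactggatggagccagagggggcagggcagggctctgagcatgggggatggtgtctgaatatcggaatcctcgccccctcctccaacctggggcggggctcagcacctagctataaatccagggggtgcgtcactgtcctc
Myh6: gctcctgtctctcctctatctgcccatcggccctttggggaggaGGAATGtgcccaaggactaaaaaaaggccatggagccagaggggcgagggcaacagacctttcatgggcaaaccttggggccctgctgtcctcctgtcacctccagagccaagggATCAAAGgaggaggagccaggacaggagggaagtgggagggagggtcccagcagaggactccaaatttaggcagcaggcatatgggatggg
Myh6 held an M-CAT match 206 to 201 bases and a TCF/LEF match 91 to 85 bases before its start, which do not overlap, and the other 2 windows held no match. Of the 36 genes, 30 had an entry, with 39 promoters in all. Of these 39, 10 held M-CAT (against 12.6% of 32851 promoters), 3 the TCF/LEF core (those of Myh6, Nebl and Tnnt2, against 14.8%), 7 a CArG box (against 1.47%) and 5 a MEF2 site (against 2.92%). A match is no evidence of binding, and none of these counts was tested.

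Among the 14774 genes tested over all libraries with group as the only term, edgeR called 0.501% of genes and 0 of the lists of other muscle genes, and 6.3% of genes had an unadjusted p under 0.05. Of 59 other sarcomere genes 48 were tested by edgeR, with 0 called in either direction, 5 at an unadjusted p under 0.05 and 30 below 0. The lowest p-values belonged to Klhl41, a kelch protein that stabilises nebulin in skeletal muscle (log2 fold change -0.62 ± 0.172, adjusted p = 0.227), Mlip, a lamin-interacting muscle protein (0.38, adjusted p = 0.449), and Fhl2, a LIM protein bound to titin (-0.42, adjusted p = 0.484). Klhl41 had 26.0 to 40.3 CPM in WntGOF libraries and 35.0 to 71.4 CPM in controls, and DESeq2 called it lower (adjusted p = 0.0444). The fit with the sets blocked called Klhl41 (adjusted p = 0.00217), Fhl2 (0.00138) and Lmod1, a leiomodin (0.0363), lower and Mlip (0.0128) higher, against 2% of all genes. With the closest pairs summed none of these 4 was called. Lmod1 had low levels, with means of 1.33 CPM in WntGOF libraries and 2.83 CPM in controls. Of 13 assembly chaperones 0 were called and 1, Itgb1bp2 (melusin), had an unadjusted p under 0.05 (log2 fold change -0.19), followed by Hspb8 (-0.13), a small heat shock protein, and Dnajb6 (0.16), a co-chaperone. Of 24 tested regulators of muscle transcription and splicing 0 were called, and the 3 with an unadjusted p under 0.05 were Rbfox2 (-0.18), Rbm24 (-0.22) and Gata6 (-0.16).

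Myot, also of the other sarcomere genes, was named after its values were seen. It encodes myotilin, a Z-disc protein that binds alpha-actinin and filamin. It had 7.77, 9.26, 8.55, 4.40, 0.370 and 7.31 CPM in WntGOF libraries 1 to 6, and 0.531, 0.496, 0.0574, 0.238, 0.201 and 0.371 CPM in controls 1 to 6. The 5 WntGOF libraries other than the library labelled WntGOF 5 lay above every control, and that library lay within the control range. The counts summed to 535 over the WntGOF libraries and 23 over the controls. Too few libraries held 10 counts for it to enter the fit of 14774 genes. With no count filter, edgeR called it higher (log2 fold change 4.34 ± 0.710, adjusted p = 0.0334, against 0.35% of all genes called higher). Since it was picked for its values, this p is a description.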

How the data were processed

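The authors deposited a table of read counts, whole numbers for each gene and library per the file headers. Per the submitters' processing notes they used Subread, its counter featureCounts, and edgeR. RNA isolation was with Trizol and library construction by Illumina protocols, per the labels. The build, annotation, strand setting and versions are not given in the sources. Of 41422 lines, 622 that repeat a gene identifier were left out, leaving 40800 genes.

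The counts were tested with edgeR 4.0.16 in R 4.3.3: filterByExpr (minimum count 10, 14774 genes), TMM scaling, the robust quasi-likelihood test with no term but group, and Benjamini-Hochberg adjustment, called under 0.05. Isoform ratios used counts plus 0.5 and an exact permutation test. Levels per length used exon unions of GENCODE M21 (GRCm38), which may not be the authors' annotation. A union can be longer than the transcripts made, so shares and ranks per length depend on it. DESeq2 1.42.0, limma 3.58.1 (voom), other scalings, filters and thresholds, the replicate number as a block and each library left out were alternatives. Library sets and summed pairs were chosen after seeing the data. The main test did not pair libraries of equal number across the groups, and the labels used here name no pairing. Their deviations from the group means correlated at -0.377 to 0.463, which does not settle whether they were pairs.

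The 36 genes and the other lists were chosen with earlier results of these data known. CPM ranges over the libraries, or values library by library, were given for genes of the 12 pairs, those with an unadjusted p under 0.05 and those called by any alternative. For the other lists the 3 lowest p-values were named. Lmod1, Myot, the Wnt targets and the named marker genes were chosen after their values were seen. Scripts were tested on simulated data. Log2 values and p-values stand in the authors' deposited table of their own comparison, where none of the 36 genes had an adjusted p under 0.05 and 7 had an unadjusted p under 0.05.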

Additional observations from a re-analysis of the deposited data

Results flagged for a closer look

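Of 98 groups of 6 libraries examined for a value far from the others (the 36 genes and the 12 isoform ratios among them), 2 held such a value, and chance gives about 1 in 20. Nebl had 828 CPM in control 4, against 912 to 961 CPM in the other 5 controls. Xirp2 had 5.34 CPM in WntGOF 3, against 2.07 to 2.87 CPM in the other 5 WntGOF libraries.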

How the results depend on the processing

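The count of called genes was 0 of 36 in edgeR and 0 under other scalings, filters, DESeq2, limma-voom, a threshold of 0.01, the replicate number as a block and summed pairs. It was 4 with the library sets as a block, and 0 to 1 with each library left out. With the replicate block 55 of all genes were called, and 0 of the 36. The count of called ratios was 0 in the main test. It was 0 to 2 with each library left out: 1 without WntGOF 2 (Tnnt1/Tnnt2, -0.31, exact permutation adjusted p = 0.026) and 2 without WntGOF 5. The replicate block, an exact sign-flip test of 6 differences, also gave 0 but cannot decide here. Its lowest possible p is 0.03125, which Tnnt1/Tnnt2 had. Adjustment over 12 ratios lifts that p above 0.05 unless most ratios reach it. The genes of the 12 pairs and Csrp3, 21 in all, had 502 alternative log2 fold changes. Of these, 487 kept direction and call, 5 became called and 10 turned. With each library left out, Actn3 ranged over -0.00571 to 0.40, Myh3 over -0.53 to 0.20, Myh7b over -0.21 to 0.0467, Myom1 over -0.043 to 0.0231 and Tnni1 over -0.0233 to 0.0838. With pairs summed Myh3 was at 0.0164 and Myom1 at 0.00714. Of 216 alternative ratios 208 kept direction and call, 3 became called and 5 turned. With each library left out Myh7b/Myh7 ranged over -0.0229 to 0.0998 and Myh3/Myh7 over -0.49 to 0.31, which was 0.0252 from summed counts. The cause was not tested. The stricter filter gave no value for Myh8 and Actn3. The share difference was -0.28 to -0.01 percentage points without each library. Low counts limit Myh3, Myh8, Actn3, Xirp2 and Myom2.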

Other observations

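A further muscle gene outside the sarcomere was Mb, the oxygen-binding myoglobin, which had 68.9 to 123 CPM in WntGOF libraries and 93.5 to 304 CPM in controls. Its log2 fold change was -0.94 by edgeR (adjusted p = 0.515). It was called lower in the fit that blocks the library sets (adjusted p = 0.00893, against 0.677% of all genes) and in none of the other 23 alternatives, over which the adjusted p reached 1.00. Fhl2 had 105 to 153 CPM in WntGOF libraries and 131 to 217 CPM in controls, and Mlip 105 to 184 CPM in WntGOF libraries and 95.4 to 129 CPM in controls. Both were called in the same fit and in none of the other 23 alternatives, with adjusted p-values up to 1.00 for Fhl2 and 0.987 for Mlip.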
